A study of Ovis aries with 3 samples.

Results

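miR-224 and miR-452 are microRNAs that in humans and mice are cut from neighbouring hairpins within an intron of GABRE, the gene of the epsilon subunit of the GABA-A receptor. Their entries were taken by name from the merged count tables of a small RNA study of sheep left ventricle, which hold 636 miRNA entries (534 named after human, mouse or rat miRNAs and 102 known sheep miRNAs). The name miR-224 or miR-452, in any species and arm, was carried by 4 entries, all in the first of these tables. These entries were selected on their counts in the merged tables, which were known beforehand, so the ratios below are descriptions of 3 libraries and not evidence for a pattern. Every library was a pool of left ventricular RNA from Coopworth ewes: HF-R, 4 sheep that had recovered from heart failure after pacing was stopped, HF, 6 sheep in heart failure brought on by rapid left ventricular pacing, and Cont, 4 normal sheep that were not paced. The sample labels differ on the protocol: the treatment labels state about 220 bpm over 13 days with 26 days to recover, and the descriptions state 225 bpm over 14 days with 14 days to recover. Pooling left 1 library per condition, so there were no replicates, no spread between sheep could be measured, and no test between conditions was possible.

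A miRNA is a short RNA that an Argonaute protein uses to find messenger RNAs, mainly through pairing of its bases 2 to 8, the seed. Each hairpin can give a miRNA from its 5′ arm (5p) and from its 3′ arm (3p), and the cutting enzymes often leave several lengths of the same arm. In mouse ovarian granulosa cells, TGF-beta raises miR-224, and in humans miR-224 is known for its high level in liver cancer.

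The loci lay on the plus strand of 1 sequence of the sheep genome build Oar v4.0. All 6 miRNA genes that RefSeq places on chromosome X (ARS-UI_Ramb_v3.0) had entries on this sequence, which is therefore called X here. RefSeq also puts the sheep GABRE gene on chromosome X, but the position of the loci inside that gene was not examined, since no annotation of the files' build was used. The tables of each library list these mature sequences, written here as DNA with the seed in capitals, because their lengths decide which counts the merged table shows:
miR-452-5p, 22 nt: aACTGTTTgcagaggaaactga
miR-452-5p, 23 nt: aACTGTTTgcagaggaaactgag
miR-452-3p, 21 nt: tCAGTCTCatctgcaaagaag
hsa-miR-452-3p, 22 nt: cTCATCTGcaaagaagtaagtg
miR-224-5p, 21 nt: cAAGTCACtagtggttccgtt
miR-224-5p, 22 nt: cAAGTCACtagtggttccgttt

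Both lengths of miR-452-5p start at base 78979264 of X, with ends at 78979285 and 78979286. miR-452-3p runs from 78979303 to 78979323, 16 nt after the longer 5p form, as the other arm of the same hairpin. The human-named miR-452-3p is placed at 78979308 to 78979329, 5 nt further along, so it has another seed. miR-224-5p starts at 78980293, with ends at 78980313 and 78980314, which puts its start 1029 nt after the start of miR-452-5p. The 2 lengths of miR-224-5p share the seed AAGTCAC and those of miR-452-5p the seed ACTGTTT, and none of the other entries in the merged tables has bases 2 to 8 in common with a member. The nearest other entries on X were miR-105-5p, 322630 nt away, and 2 entries of miR-767 (hsa-miR-767-5p and mmu-miR-767), 323898 nt away. These 3 neighbours had between 0 and 2 counts in each library.

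The values are raw counts of reads. The distinct entries of the merged tables summed to 5990078 counts in HF-R, 6154795 in HF and 4711131 in Cont, and exact matches in the tables of each library to 2473560, 2313015 and 1750103 in the same order. Levels are given as counts per 1000000 (CPM) of these totals, and each interval is a 95% interval for counting error only, exact Poisson for a level and Clopper-Pearson for a ratio or share. PCR copies of a molecule are counted separately, so the true error is larger. As a check of the tissue, all 7 cardiac muscle markers (miR-1, the miR-133, miR-208 and miR-499a group) had counts, with summed levels of 388546 CPM in HF-R, 319778 in HF and 323617 in Cont. The fibroblast and smooth muscle markers (miR-143, miR-145, miR-199a, miR-199b and miR-214, 5 of 5 with counts) summed to 90897, 85259 and 103376 CPM in that order. This sum is mostly miR-143-3p, with 528280 of 544479 counts in HF-R, 507812 of 524754 in HF and 477008 of 487018 in Cont. The HF over Cont ratio was 0.815 for miR-143-3p, 0.987 for hsa-miR-143-5p and 1.41 for mmu-/rno-miR-143-5p. It was 1.48 for miR-145-5p, 1.115 for hsa-miR-145-3p and 1.72 for rno-miR-145-3p. For miR-199a-5p it was 1.33, for miR-199b-5p 1.11, for miR-214-3p 1.18 and for miR-214-5p 1.545, so the sum does not stand for each marker. In the same order, white blood cell markers (4 of 4) summed to 489, 454 and 565 CPM and red blood cell markers (3 of 4) to 2899, 3446 and 3473 CPM. The liver miRNA miR-122 had 3 counts in HF-R, 36 in HF and 3 in Cont, and for miR-126, which marks endothelium, there was no value to analyse here. In pooled tissue a change in the cells that make a miRNA and a change in its amount per cell cannot be told apart, and the part of these markers in the results below was not tested.

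In the merged table, miR-452-5p was higher in HF than in the other libraries and miR-224-5p stayed closer to level. miR-452-5p had 509 counts in HF-R, 1152 in HF and 427 in Cont, or 85.0, 187 and 90.6 CPM. Its HF level stood 2.07-fold over Cont (1.85 to 2.31) and its HF-R level was 0.454 of that in HF (0.408 to 0.504), while HF-R over Cont was 0.938 (0.823 to 1.07), an interval that includes 1. The other arm of the same hairpin, rno-miR-452-3p, had 50, 101 and 40 counts in HF-R, HF and Cont, with ratios of 1.93 for HF over Cont (1.33 to 2.86), 0.509 for HF-R over HF (0.355 to 0.721) and 0.983 for HF-R over Cont (0.636 to 1.53). Both arms thus had their highest level in HF. With edgeR's TMM factors the HF over Cont ratios were 1.62 for miR-452-5p and 1.52 for rno-miR-452-3p, and with DESeq2's size factors 1.77 and 1.65.

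miR-224-5p had 722 counts in HF-R, 878 in HF and 554 in Cont, or 121, 143 and 118 CPM. The ratios were 1.21 for HF over Cont (1.09 to 1.35), 0.845 for HF-R over HF (0.765 to 0.933) and 1.02 for HF-R over Cont (0.916 to 1.15). The direction of the HF ratio rested on the scaling, since it became 0.951 with TMM and 1.04 with DESeq2's factors, and HF-R over HF became 1.08 and 1.03. The fourth entry, hsa-miR-452-3p, is a partial match with 160 counts in HF-R, 210 in HF and 157 in Cont, and its HF over Cont ratio was 1.02 (0.829 to 1.27).

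A call of higher or lower needed a CPM ratio of 1.5 or more (in either direction) whose interval left out 1. For HF over Cont, 2 of the 4 members were called higher (miR-452-5p and rno-miR-452-3p) and none lower, beside 22.8% called higher and 7.87% called lower among the 356 distinct entries that averaged 10 counts or more. For HF-R over HF the same pair was called lower, beside 23.3% lower and 5.06% higher among all entries. For HF-R over Cont no member was called, beside 4.78% higher and 11.2% lower. The median log2 ratio over the 356 entries was 0.16 for HF over Cont, -0.03 for HF-R over Cont and -0.29 for HF-R over HF. TMM shifts every log2 ratio by -0.35, 0.00 and 0.35 in these comparisons. Since the members were picked with these ratios known, nothing is read from their number.

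**Figure D1:**
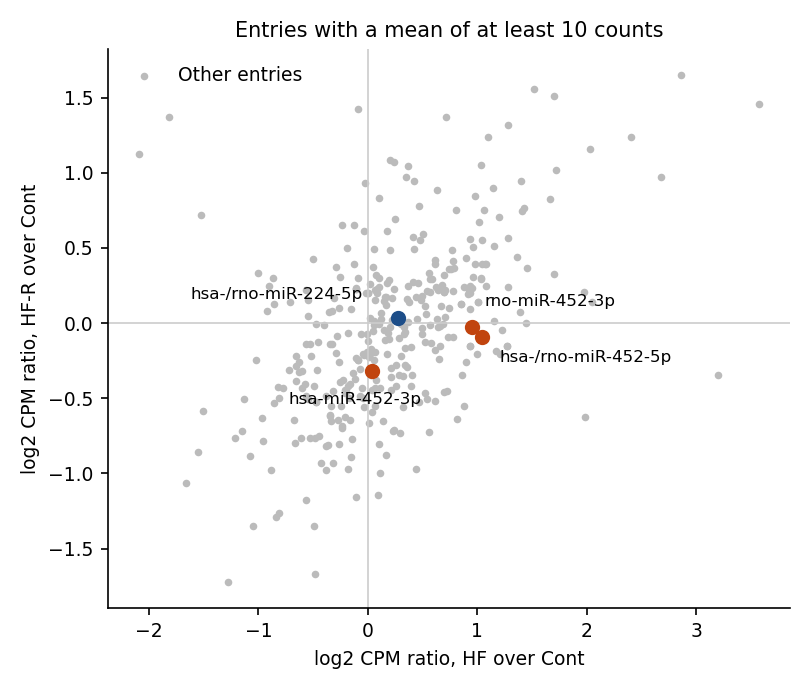
Each point is 1 of the 356 distinct merged entries averaging 10 counts or more, placed by its log2 CPM ratio of HF over Cont (x axis) and of HF-R over Cont (y axis); grey points are other miRNAs, orange points the miR-452 entries and the blue point miR-224-5p. miR-452-5p and rno-miR-452-3p sit beside each other at x values of 1.05 and 0.95 near y = 0, whereas miR-224-5p sits at 0.28 and hsa-miR-452-3p at 0.03 on the x axis.

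The merged entry named for human and rat together holds only the shorter of the lengths. In the tables of each library, the 22 nt form of miR-224-5p (listed as rno-miR-224-5p) had 6190 exact counts in HF-R, 6271 in HF and 4514 in Cont, whereas the 21 nt form had exactly the 722, 878 and 554 counts of the merged entry. The merged count was therefore 10.4% of the exact reads of miR-224-5p in HF-R (9.73 to 11.2), 12.3% in HF (11.5 to 13.1) and 10.9% in Cont (10.1 to 11.8). In order of mean count among 346 exact sequences, the 22 nt form was number 15 and the 21 nt form number 45. In the other list of 621 merged entries, which also holds partial matches, the merged entry was number 107. The 23 nt form of miR-452-5p (listed as rno-miR-452-5p) had 1126 exact counts in HF-R, 2641 in HF and 1251 in Cont, and the merged entry held 31.1%, 30.4% and 25.4% of the exact reads in the same order. This is not particular to the pair: among 307 perfectly matched entries of the merged table, 47 had a row of the same miRNA within 15 nt, under another species' name or length, with more exact reads, and 7 of these averaged 100 counts or more.

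**Figure D2:**
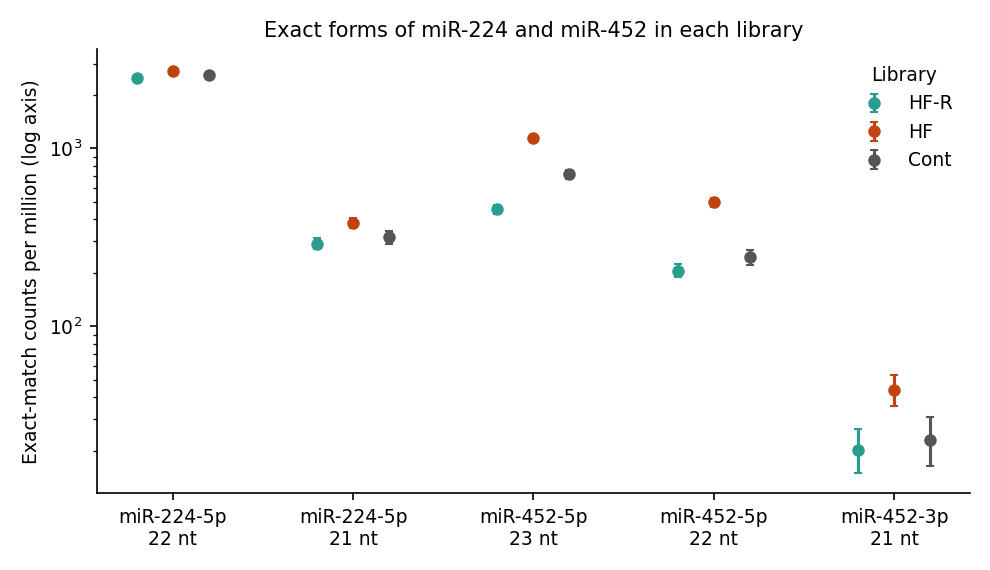
Points give the level of each exact form in CPM of the exact-match total of its library (log axis), for HF-R, HF and Cont from left to right, and bars give the exact Poisson 95% interval. The 22 nt form of miR-224-5p is the most abundant and nearly level over the libraries, at 2502.5, 2711 and 2579 CPM, whereas each form of miR-452 is highest in HF.

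Taking both exact lengths together, miR-452-5p had 1635 counts in HF-R, 3793 in HF and 1678 in Cont. As CPM of the exact-match totals, the HF over Cont ratio was 1.71 (1.61 to 1.81), HF-R over HF was 0.403 (0.380 to 0.427) and HF-R over Cont was 0.689 (0.644 to 0.738). The ratio of HF over Cont differed between the lengths, at 2.04 (1.83 to 2.29) for the 22 nt form and 1.60 (1.49 to 1.71) for the 23 nt form. For HF-R over Cont the 23 nt form was at 0.637 (0.587 to 0.691), past the fold, and the 22 nt form at 0.843 (0.740 to 0.961). On the same scale, exact sequences as a whole were lower in HF-R: of 187 that averaged 10 counts or more, 24.1% were called lower and 3.21% higher than in Cont, with a median log2 ratio of -0.25. For HF over Cont, 28.3% were called higher and 5.88% lower, and for HF-R over HF 40.6% were called lower and 1.07% higher. The call of HF over Cont for both lengths together did not hold under other factors (1.37 with TMM, 1.33 with DESeq2's), but that of HF-R over HF did (0.563 and 0.611). The HF-R over Cont ratio of the 23 nt form was 0.712 with TMM and 0.751 with DESeq2's factors, short of the fold.

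Both exact lengths of miR-224-5p summed to 6912 counts in HF-R, 7149 in HF and 5068 in Cont. The HF over Cont ratio was 1.07 (1.03 to 1.11) and became 0.854 with TMM and 0.830 with DESeq2's factors. HF-R over Cont was 0.965 (0.930 to 1.00), with 1.08 and 1.14 under those factors. HF-R over HF was 0.904 (0.875 to 0.935), against 1.26 and 1.37 under them. For both exact lengths of miR-224-5p together, no direction was the same with CPM, TMM and DESeq2's factors, and none of these ratios reached 1.5 in either direction.

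The balance of the 2 miRNAs within a library does not depend on the scaling. In the merged table, miR-224-5p made up 58.7% of the counts of miR-224-5p plus miR-452-5p in HF-R (55.8 to 61.4), 43.3% in HF (41.1 to 45.4) and 56.5% in Cont (53.3 to 59.6). With both exact lengths the shares were 80.9% in HF-R (80.0 to 81.7), 65.3% in HF (64.4 to 66.2) and 75.1% in Cont (74.1 to 76.2). HF had the lowest share either way. The number of miR-452-5p counts per miR-224-5p count was 1.60-fold higher in HF than in Cont over both exact lengths (1.5 to 1.71, Woolf interval), 0.446 of HF in HF-R (0.417 to 0.477) and 0.714 of Cont in HF-R (0.661 to 0.772). In the merged table these ratios were 1.70 (1.46 to 1.99), 0.537 (0.466 to 0.620) and 0.915 (0.772 to 1.08). They compare counts, since different miRNAs are not ligated into a library equally well, and not molecules.

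Reads that match a miRNA in part (70 to 99%) outnumbered the exact reads and gave another order. The partial matches of rno-miR-224-5p numbered 7416 in HF-R, 12388 in HF and 8336 in Cont, and those of rno-miR-452-5p 2707, 4490 and 2379. Not all of them begin like the miRNA. For miR-224-5p, 152 of 487 distinct partial sequences in HF-R, 166 of 504 in HF and 133 of 436 in Cont had first 10 bases not found in the mature form. For miR-452-5p these were 135 of 332, 208 of 450 and 134 of 316. Per exact-match total, the partial matches of miR-224-5p in HF-R were 0.629 of Cont (0.610 to 0.650) and 0.560 of HF (0.544 to 0.576), unlike its exact reads, and HF over Cont was 1.12 (1.09 to 1.16). For miR-452-5p these ratios were 0.805 (0.762 to 0.851), 0.564 (0.537 to 0.591) and 1.43 (1.36 to 1.5). The exact-match totals used here count no partial reads. From raw counts, HF-R over Cont was 0.890 for the partial matches of miR-224-5p and 1.14 for those of miR-452-5p. The ratios of partial matches were not computed with TMM or DESeq2's factors, nor set beside those of other partial matches. Among the partial matches the share of miR-224-5p was 73.3% in HF-R (72.4 to 74.1), 73.4% in HF (72.7 to 74.1) and 77.8% in Cont (77.0 to 78.6), so that HF-R lay with HF and not with Cont. The miR-452-5p count per miR-224-5p count was 1.27-fold higher in HF than in Cont (1.2 to 1.34), 1.28-fold higher in HF-R than in Cont (1.2 to 1.36), and 1.01 for HF-R over HF (0.953 to 1.06). With exact and partial reads summed, the share was 76.7% in HF-R, 70.2% in HF and 76.8% in Cont. The share was lower in HF than in Cont in each of the 4 kinds of count, whereas the place of HF-R changed with the kind. These kinds overlap and are not separate measurements. The merged counts are part of the exact counts, and the last kind is the sum of exact and partial reads.

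**Figure D3:**
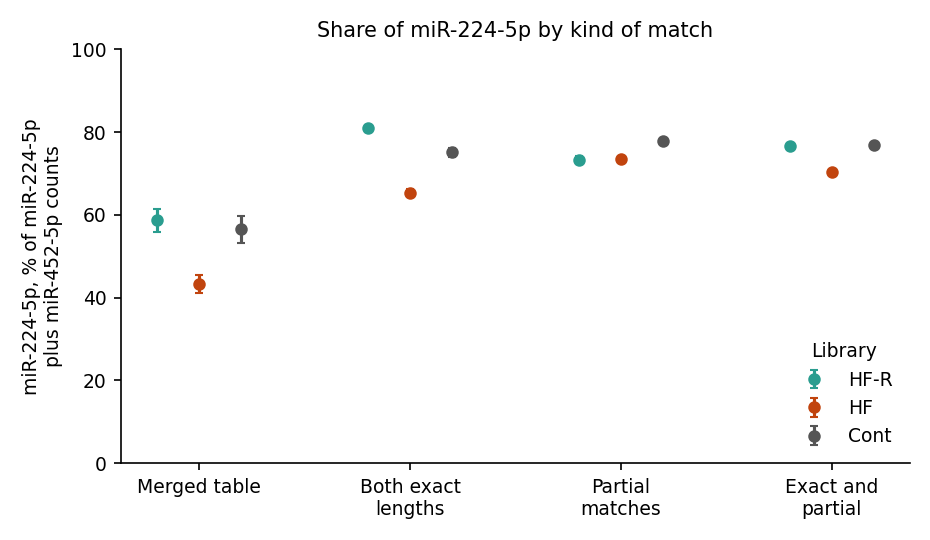
The y axis gives miR-224-5p as a percent of the miR-224-5p plus miR-452-5p counts within a library, for the merged table, both exact lengths, the partial matches and exact plus partial matches; points are HF-R, HF and Cont from left to right and bars are Clopper-Pearson 95% intervals. HF is below Cont in each group of points, while HF-R is above HF except among the partial matches, where both are near 73%.

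The part of the reads that matched exactly moved in opposite ways for the 2 miRNAs. For miR-224-5p, exact reads were 48.2% of exact plus partial in HF-R (47.4 to 49.1), 36.6% in HF (35.9 to 37.3) and 37.8% in Cont (37.0 to 38.6). For miR-452-5p they were 37.7% in HF-R (36.2 to 39.1), 45.8% in HF (44.7 to 46.9) and 41.4% in Cont (39.8 to 42.9). rno-miR-452-3p had 21.1% in HF-R (16.1 to 26.8), 28.4% in HF (23.7 to 33.4) and 17.9% in Cont (13.1 to 23.6), so that both arms of miR-452 had their highest exact share in HF. Over 319 rows with at least 100 exact and partial counts in each library, the median exact share was 24.7% in HF-R, 32.4% in HF and 25.7% in Cont. The share was higher in HF than in Cont for 259 of these rows, and on the same measure rno-miR-224-5p was among the others, at 33.6% in HF and 35.1% in Cont. It was higher in HF-R than in Cont for 158 rows.

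The longer length made up most of the exact reads of each 5p arm in every library, but its share was not fixed. The 22 nt form was 89.6% of the exact reads of miR-224-5p in HF-R (88.8 to 90.3), 87.7% in HF (86.9 to 88.5) and 89.1% in Cont (88.2 to 89.9). The 23 nt form was 68.9% of the exact reads of miR-452-5p in HF-R (66.6 to 71.1), 69.6% in HF (68.1 to 71.1) and 74.6% in Cont (72.4 to 76.6), which puts Cont above the paced and recovered libraries by more than counting error.

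The balance of the arms of miR-452 depended on the kind of count. rno-miR-452-3p was 8.94% of its own plus the merged miR-452-5p counts in HF-R (6.71 to 11.6), 8.06% in HF (6.61 to 9.71) and 8.57% in Cont (6.19 to 11.5). Against both exact lengths of the 5p arm it was 2.97%, 2.59% and 2.33% in that order. In both of these the intervals of all libraries overlapped. With exact and partial reads of both arms the 3p share was 5.18% in HF-R (4.55 to 5.86), 4.12% in HF (3.71 to 4.56) and 5.21% in Cont (4.56 to 5.92), with HF lowest. With all merged entries, hsa-miR-452-3p included, it was 29.2% in HF-R (25.9 to 32.7), 21.3% in HF (19.2 to 23.4) and 31.6% in Cont (27.9 to 35.4), again lowest in HF, with an interval apart from the others. The entry hsa-miR-452-3p could not be read as a form of its own. It had 0 exact counts in each library, with Poisson upper limits of 1.49 CPM in HF-R, 1.59 in HF and 2.11 in Cont, and none of the 29 distinct reads listed for it in HF-R, 47 in HF and 36 in Cont began with its first 10 bases. Of these reads, 27, 45 and 33 were also listed for rno-miR-452-3p, and 15, 21 and 19 began with the first 5 bases of that form, so that most of its distinct reads stood under rno-miR-452-3p as well.

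The tables list the distinct partial reads of each miRNA without a count for each read, so the following are numbers of sequences. rno-miR-224-5p had 487 distinct partial reads in HF-R, 504 in HF and 436 in Cont, rno-miR-452-5p had 332, 450 and 316, and rno-miR-452-3p had 48, 82 and 56. Sequences listed in all 3 libraries were 216 of 817 for miR-224-5p, 133 of 696 for miR-452-5p and 22 of 128 for miR-452-3p. Most reads whose first 10 bases lie in the mature form kept its 5′ end. For miR-224-5p, 296 reads in HF-R, 308 in HF and 275 in Cont started at the first base, 29, 19 and 22 started 1 nt later, and at most 1 in a library started 3 nt later.

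miR-452-5p had a second start that miR-224-5p lacked. Its reads began at the first base in 117 sequences in HF-R, 159 in HF and 120 in Cont, and exactly 3 nt later in 50, 51 and 38, while a shift of 1, 2, 4 or 5 nt was found in 2 to 8 sequences each. The later start replaces the seed ACTGTTT by GTTTGCA. Sequences that start 3 nt later were 15.1% of the distinct partial reads in HF-R, 11.3% in HF and 12.0% in Cont. Of the reads below, shown because their seeds differ, the first carries 1 base after the 23 nt form, in capitals, and the second, listed in all 3 libraries, has its own bases 2 to 8 in capitals:
miR-452-5p, 24 nt read: aactgtttgcagaggaaactgagG
miR-452-5p read that starts 3 nt later: tGTTTGCAgaggaaactgagg

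**Figure D4:**
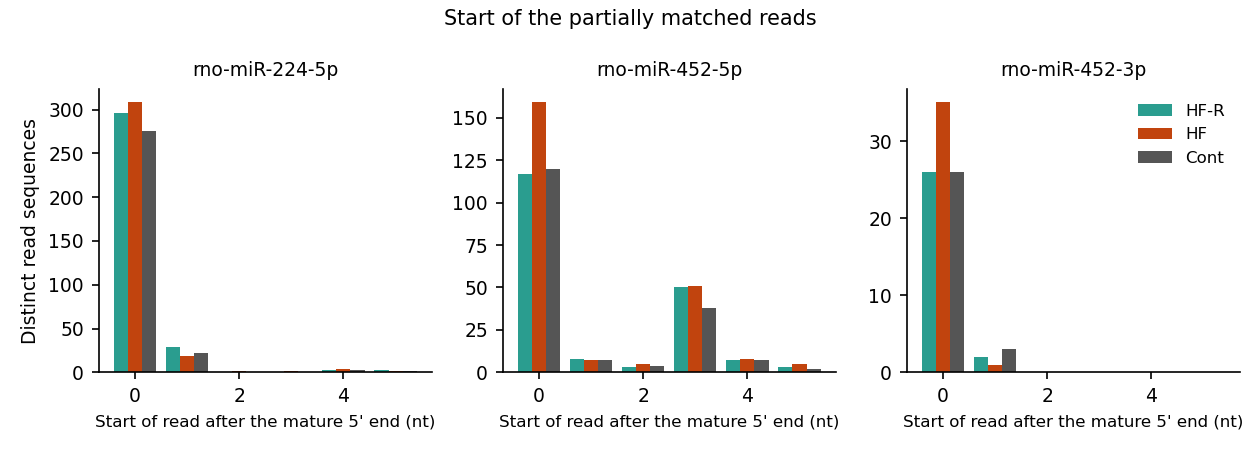
Bars give the number of distinct partially matched read sequences that start 0 to 5 nt after the mature 5′ end (x axis) for rno-miR-224-5p, rno-miR-452-5p and rno-miR-452-3p, in HF-R, HF and Cont from left to right; the y axes differ. All 3 miRNAs have most sequences at 0, and rno-miR-452-5p has a second group at 3 nt with 50, 51 and 38 sequences.

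Partial reads of miR-224-5p had more distinct sequences of 22 and 24 nt than of 23 nt. Sequences of 22 nt numbered 137 in HF-R, 131 in HF and 115 in Cont, and those of 24 nt numbered 116, 145 and 128, against 76, 77 and 64 of 23 nt. Reads of miR-452-5p were most often 23 nt (79, 123 and 87 sequences) and those of miR-452-3p 22 nt (30, 45 and 29). Among reads that run on beyond the 22 nt form of miR-224-5p by at least 2 bases, the first added base was A in 21 sequences in HF-R, 18 in HF and 20 in Cont, T in 5, 6 and 6, G in 4, 4 and 6 and C in 2, 1 and 2. The 24 nt read that ends in AG was listed in all 3 libraries, and is shown with its added bases in capitals:
miR-224-5p, 24 nt read: caagtcactagtggttccgtttAG

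**Figure D5:**
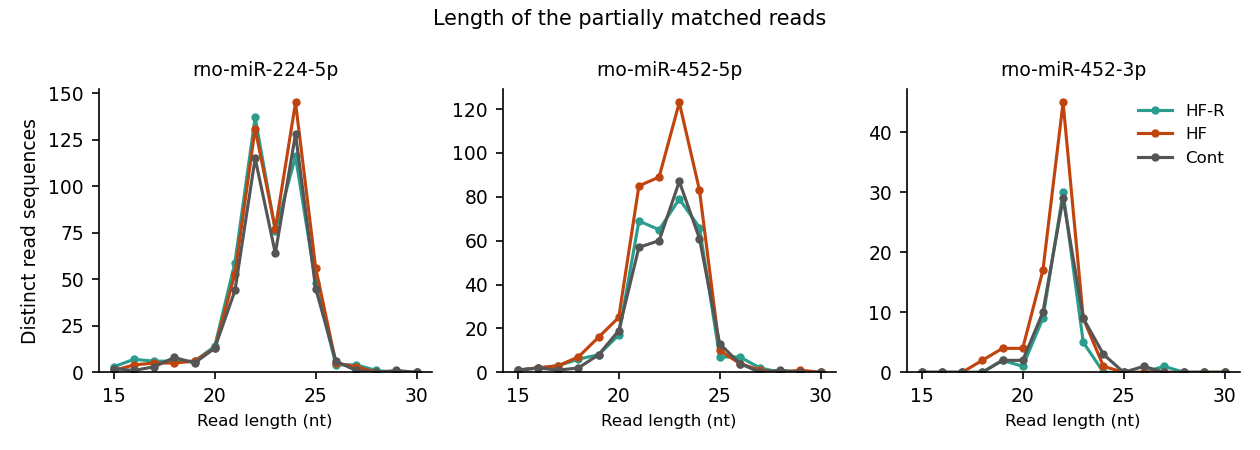
Lines give the number of distinct partially matched read sequences of each length from 15 to 30 nt in HF-R, HF and Cont, for rno-miR-224-5p, rno-miR-452-5p and rno-miR-452-3p, with y axes that differ. miR-224-5p has peaks at 22 and 24 nt with a dip at 23 nt, miR-452-5p a peak at 23 nt and miR-452-3p a peak at 22 nt, each in all 3 libraries.

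Likeness of pattern was measured as the distance between pairs of log2 CPM ratios (HF over Cont and HF-R over Cont), as a description over 3 libraries. It was taken from the merged entries of miR-224-5p and miR-452-5p, which hold only the shorter lengths. Each was compared with the 191 other distinct merged entries averaging 100 counts or more. The entry nearest to miR-224-5p was hsa-miR-4318, a partial match with 535, 666 and 417 counts in HF-R, HF and Cont, at a distance of 0.03. It was followed by miR-499a-5p, a cardiac muscle miRNA that lies within a myosin heavy chain gene, at 0.04, oar-miR-411a-5p at 0.08, oar-miR-30c at 0.09 and miR-497a-5p at 0.12. These 5 had HF over Cont ratios of 1.22 to 1.29, all inside the interval of miR-224-5p (1.09 to 1.35). Their order was therefore within counting error. The entries nearest to miR-452-5p were the partial match miR-125b-5p, with 656, 1549 and 594 counts, at 0.12, miR-652-3p and miR-652-5p at 0.13, miR-320a at 0.15 and miR-101-3p at 0.18. The far more abundant entry oar-miR-125b, which averaged 70270 counts, had log2 ratios of 0.53 and 0.06. Those of miR-452-5p were 1.05 and -0.09. The 2 miR-652 entries, themselves on X, carry the same 127, 277 and 111 counts and are not separate measurements. miR-452-5p and miR-224-5p lay 0.78 apart, which made miR-452-5p number 136 of 191 in order of distance from miR-224-5p, and miR-224-5p number 75 of 191 from miR-452-5p.

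The other entries on X numbered 51 distinct ones, and 30 of them averaged 10 counts or more. For HF over Cont 13 of the 30 (43.3%) were called higher and 1 (3.33%) lower, beside 22.8% and 7.87% of all entries, and their median log2 ratio was 0.62, beside 0.16 over all entries. With TMM factors 3 were called higher and 4 lower, beside 42 and 74 of all 356 entries, so this count followed the scaling. The median of the 30 was then 0.27. TMM shifts every log2 ratio equally, so the gap between their median and that of all entries stayed the same. The 30 include the miR-652 pair and an miR-542 pair with the same counts. Examples are miR-361-5p, with 614, 983 and 338 counts in HF-R, HF and Cont and an HF over Cont ratio of 2.23, and oar-let-7f, with 34793, 32879 and 23807 counts and a ratio of 1.06. The other arm of miR-361, hsa-miR-361-3p, went the other way, with 292, 184 and 206 counts and a ratio of 0.684. For HF-R over HF 9 (30%) were called lower and 1 (3.33%) higher, beside 23.3% and 5.06% of all entries, and with TMM 2 were lower and 4 higher, beside 33 and 58 of all entries.

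Of 17 entries of fibroblast and smooth muscle miRNAs (miR-21, miR-29a, miR-29b, miR-29c, miR-143, miR-145, miR-199a, miR-199b and miR-214), 6 (35.3%) were called higher in HF than in Cont and none lower, beside 22.8% and 7.87% of all entries, with a median log2 ratio of 0.57 beside 0.16. With TMM, 3 were higher and 1 lower, beside 42 and 74 of all 356 entries. The 6 called with CPM were oar-miR-29a, oar-miR-29b, the partial matches miR-29a-3p and miR-29c-3p, miR-214-5p and rno-miR-145-3p. Most were thus miR-29 entries, with miR-29a under 2 names, and the partial match miR-29a-3p had 15, 50 and 6 counts. oar-miR-21, miR-143-3p, miR-145-5p, miR-199a-5p, miR-199b-5p and miR-214-3p were not called in HF over Cont. Unlike miR-452-5p, oar-miR-21, which is abundant in cardiac fibroblasts, was highest in HF-R, with 139613 counts in HF-R, 89870 in HF and 53224 in Cont and an HF-R over Cont ratio of 2.06. oar-miR-29b, which targets collagen messenger RNAs, was called higher in HF, with 3831, 5903 and 2291 counts and a ratio of 1.97. Of 12 entries of TGF-beta and hypoxia miRNAs (miR-21, miR-210, miR-181a, miR-181b, miR-143 and miR-145), 2 (16.7%) were called higher and 2 lower in HF than in Cont, beside 22.8% and 7.87% of all entries, with a median log2 ratio of 0.08. With TMM, 1 was higher and 3 lower, beside the same 42 and 74 of all entries. miR-210-3p, which is induced by hypoxia, had 18, 30 and 7 counts and a ratio of 3.28. The lists share miR-21, miR-143 and miR-145.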

How the data were processed

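Total RNA from left ventricle was pooled by group, made into 1 small RNA library each with an NEBNext kit and sequenced on an Illumina NextSeq. Reads of 15 to 30 nt were kept by the authors, compared with miRBase v21 using Blast and placed on Oar v4.0 using Bowtie (tool versions not given in the sources used here). The deposited values are raw counts per miRNA entry, in merged tables over the libraries and in tables of exact and partial (70 to 99%) matches for each library. The 636 rows of 4 further tables repeat the merged counts and were not used.

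Entries with the same counts and overlapping loci were taken once, which left 621. Ratios of CPM have Clopper-Pearson 95% intervals, and entries averaging 10 counts or more entered the background. Exact counts were summed once per sequence. Read starts were found from the first 10 bases. The members, lists and naming rule (the members, the 5 entries nearest in pattern to each of 2 members, the 3 nearest by position, list members as examples) were chosen with earlier results of these data known. Exact counts served as another count for the 5p ratios, while their other scalings, the sums with partial matches and the exact-count 3p share were added after seeing the data. Alternatives were TMM (edgeR 4.0.16), size factors (DESeq2 1.42.0), other totals, filters and folds. Code in Python 3.11.15 (scipy 1.17.1) and R 4.3.3 was tested on simulated data.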

Additional observations from a re-analysis of the deposited data

How the results depend on the processing

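No paired analysis was possible because each condition has 1 pooled library. Planned counts of reads seen at least 2 times were not run, since the tables hold no count per read. The alternatives changed the scaling, the counts used, the filter, the fold or the rule on read starts, 1 at a time, and the cause of a difference was not tested.

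For merged miR-224-5p, HF over Cont was 0.951 with TMM, 1.04 with DESeq2's factors, 1.58 with raw counts and 1.08 with exact counts of both lengths; HF-R over Cont was 1.30 with raw counts; HF-R over HF was 1.08, 1.03 and 0.993 with TMM, DESeq2's factors and exact counts. For merged miR-452-5p, HF over Cont was 1.62, 1.77, 2.70 and 1.73 in the first order; HF-R over Cont was 1.19 with raw and 0.766 with exact counts; HF-R over HF was 0.580 with TMM and 0.552 with DESeq2's factors. For hsa-miR-452-3p, HF over Cont was 0.803 with TMM and 1.34 with raw counts, HF-R over Cont 1.02 with raw counts and HF-R over HF 1.00 with TMM, while rno-miR-452-3p stayed within its intervals except for HF over Cont with partial matches added (1.21). Its HF over Cont and HF-R over HF ratios were short of the fold with DESeq2's factors of the exact tables (1.49 and 0.702). Leaving miR-1 out, taking all entries or taking the exact-match totals kept each ratio of the 4 entries within its interval (12 of 12 each).

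For both exact lengths of miR-224-5p (merged total, TMM, DESeq2, raw, partial matches added), HF-R over Cont was 1.07, 1.08, 1.14, 1.36 and 0.756 and HF-R over HF 0.993, 1.26, 1.37, 0.967 and 0.686; HF over Cont was 0.854, 0.830 and 1.41 with TMM, DESeq2 and raw counts. For miR-452-5p, HF-R over Cont was 0.766, 0.771, 0.813, 0.974 and 0.757 and HF-R over HF 0.443, 0.563, 0.611, 0.431 and 0.490; HF over Cont was 1.37, 1.33, 2.26 and 1.54 with TMM, DESeq2, raw counts and partial matches added.

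The share of miR-224-5p was 80.9% in HF-R, 65.3% in HF and 75.1% in Cont from exact counts, 50.1, 37.5 and 47.0% with all entries, 73.3, 73.4 and 77.8% from partial matches and 76.7, 70.2 and 76.8% from both. The 3p share of miR-452 was 29.2, 21.3 and 31.6% with all entries, where the partial match hsa-miR-452-3p is added, 2.97, 2.59 and 2.33% from exact counts and 5.18, 4.12 and 5.21% with partial matches added. With the exact start only, HF-R had 117 partial reads of miR-452-5p, not 188.

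Entries higher and lower in HF over Cont (81 and 28) numbered 47 and 14 at a mean of 100, 40 and 10 at a fold of 2, 42 and 74 with TMM and 52 and 53 with DESeq2, and 53 were lower at a fold of 1.2. In HF-R over Cont (17 and 40) they numbered 5 and 24, 10 and 8, and at a fold of 1.2 42 and 73. In HF-R over HF (18 and 83) they numbered 9 and 48, 7 and 34, 37 and 139 at a fold of 1.2, 58 and 33 with TMM and 44 and 41 with DESeq2. With TMM, the other X entries higher and lower numbered 3 and 4 (13 and 1 with CPM) for HF over Cont and 4 and 2 (1 and 9) for HF-R over HF. Of the fibroblast list 3 were higher and 1 lower for HF over Cont, and of the TGF-beta list 1 was higher for HF over Cont and 0 lower for HF-R over HF. With 40 to 101 counts, rno-miR-452-3p limits what can be said of that arm.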

Other observations

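Some close relatives of the listed reads were absent from the tables of all 3 libraries. The 23 nt sequence that adds A to the 22 nt form of miR-224-5p was listed in none, although 28 sequences in HF-R, 34 in HF and 24 in Cont differed from it at 1 base, and the 24 nt read ending in AG was listed in each. For rno-miR-452-3p, the 22 nt sequence that adds T to the 21 nt form was likewise listed in none, while 19, 31 and 20 sequences differed from it at 1 base, and reads that add A, C or G were listed in each library. The cause was not tested, and counts of these reads, if any, are in none of the values above.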
